A study of Homo sapiens with 11 samples.

Results

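The cells described here were Reh cells, an established human line of B-cell precursor acute lymphoblastic leukaemia that carries the ETV6-RUNX1 fusion gene. All 11 arrays of the study were treated as one kind of cell, so that the members are 11 of 11 arrays and the question is which genes these cells express at high or low level. All the cells had been infected with virus particles at 2.5 transducing units per cell and stably expressed the microRNA miR-125b. They were transfected, with Lipofectamine, with a precursor oligonucleotide of scrambled sequence (control, 2 arrays), of miR-99a (3 arrays), of miR-100 (3 arrays) or of both (3 arrays). The dose on the labels was 66 µM of a single oligonucleotide or 33 µM of each in the combination. Fresh oligonucleotide was added after 72 h, and harvest followed 48 h later. Cells without miR-125b were not analysed here, so a level below is that of Reh cells with the virus, the microRNA and a transfected oligonucleotide. Whether the replicates come from different cultures, and whether the infected line was a clone, is not stated on the labels. A spread between arrays may therefore be technical.

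The microRNAs that distinguish these cells from the parent line are shown because all the cells carried the first of them and the treated cells also received the others. Mature sequences are from RefSeq (GRCh38.p14), written 5′ to 3′, with the seed (bases 2 to 8) in capitals.
miR-125b-5p: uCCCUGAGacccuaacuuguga
miR-99a-5p: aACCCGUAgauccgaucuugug
miR-100-5p: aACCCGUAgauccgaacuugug
The sequence of miR-125b is encoded at chr11:122099809-122099830 (minus strand) and at chr21:16590253-16590274 (plus strand). The sequence of miR-99a lies at chr21:16539101-16539122 (plus strand) and that of miR-100 at chr11:122152275-122152296 (minus strand). The mature miR-99a and miR-100 share their seed and differ by U16A, counted from the 5′ end of miR-99a. The array measures longer transcripts and not these mature RNAs.

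A B-cell precursor is a progenitor that has begun to rearrange its immunoglobulin genes. The transcription factors TCF3, EBF1 and PAX5 switch on the B-lineage programme. The RAG recombinase then cuts the immunoglobulin loci, terminal transferase (DNTT) adds bases at the joints, and the first heavy chain is displayed with a surrogate light chain made of the IGLL1 and VPREB1 proteins. In most such leukaemias the cells are arrested around this step.

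Levels are the deposited log2 values, which ran from 4.398 to 14.839, with array medians between 5.95 and 5.984. Where a gene had several probe sets, that with the highest mean stood for it, which gave 19775 genes. A mean of 10 or more over the 11 arrays was reached by 1538 genes, 7.78% of the total, and a mean below 6 was found for 7948 genes, 40.2%. On every array taken singly, 1211 genes (6.12%) stood at 10 or more and 6931 (35.0%) below 6. Probe sets bind their targets with different strength, so a level places a gene on this array and does not give the amount of one transcript against another. The choice of the highest probe set also favours genes with many of them. Among genes with 1 probe set, 4.82% reached 10 and 56.1% lay below 6, against 14.3% and 15.5% of genes with 4 or more. A low value is therefore read beside 38 genes listed as restricted to tissues unrelated to blood, such as albumin, insulin and myosin genes. Their median level was 5.73, the quartiles were 5.48 and 6.09, and 35 of the 38 lay below 7. A level below 7 is called within the span of the unrelated genes, although the highest of the 38, MBP, reached 9.225. MBP is known to give shorter transcripts in blood cells. About 59.0% of all genes stood at or below 7.01, the level of DSC2, so the label alone does not set a gene apart.

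The 3 arrays numbered replicate 3 stood apart from the other 8. They correlated with each other at 0.9977 to 0.998, across 3 pairs and over genes, and with the rest at 0.9894 to 0.996, while the rest correlated at 0.9954 to 0.9982. No control array carries this number. Without these 3 arrays 1561 genes stood at 10 or more, of which 1504 did so over all arrays, and 7900 lay below 6.

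Genes of the B-lineage programme were among those at 10 or more on every array. DNTT, IGLL1 and PAX5, the 3 genes picked to mark these cells, stood above 10 on all 11 arrays. Because they were picked as markers, their level is a description only. Of 128 genes on 4 lists of B-precursor biology, 120 were measured. Of these, 38 had a mean of 10 or more (31.7%, against 7.78% of all genes), 63 lay between the levels and 19 were below 6 (15.8%, against 40.2%). On every array, 33 stood at 10 or more and 16 below 6. The shares also moved with the number of probe sets. Among genes with 1 probe set, 4 of 30 B-precursor genes reached 10 (13.3%, against 4.82%), and among those with 4 or more, 14 of 32 did (43.8%, against 14.3%). With the median over a gene's probe sets in place of the highest, 14 B-precursor genes and 739 of all genes reached 10. With the low level set 0.5 lower, 5 of the 120 B-precursor genes and 3968 of all 19775 genes lay below it. The lists were compiled from general knowledge of the field, with earlier results of these data known. The shares therefore describe the lists and are no test. The other 8 listed genes had no probe set that names a single gene, or none at all in the annotation used, and were not analysed here.

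**Figure D1:**
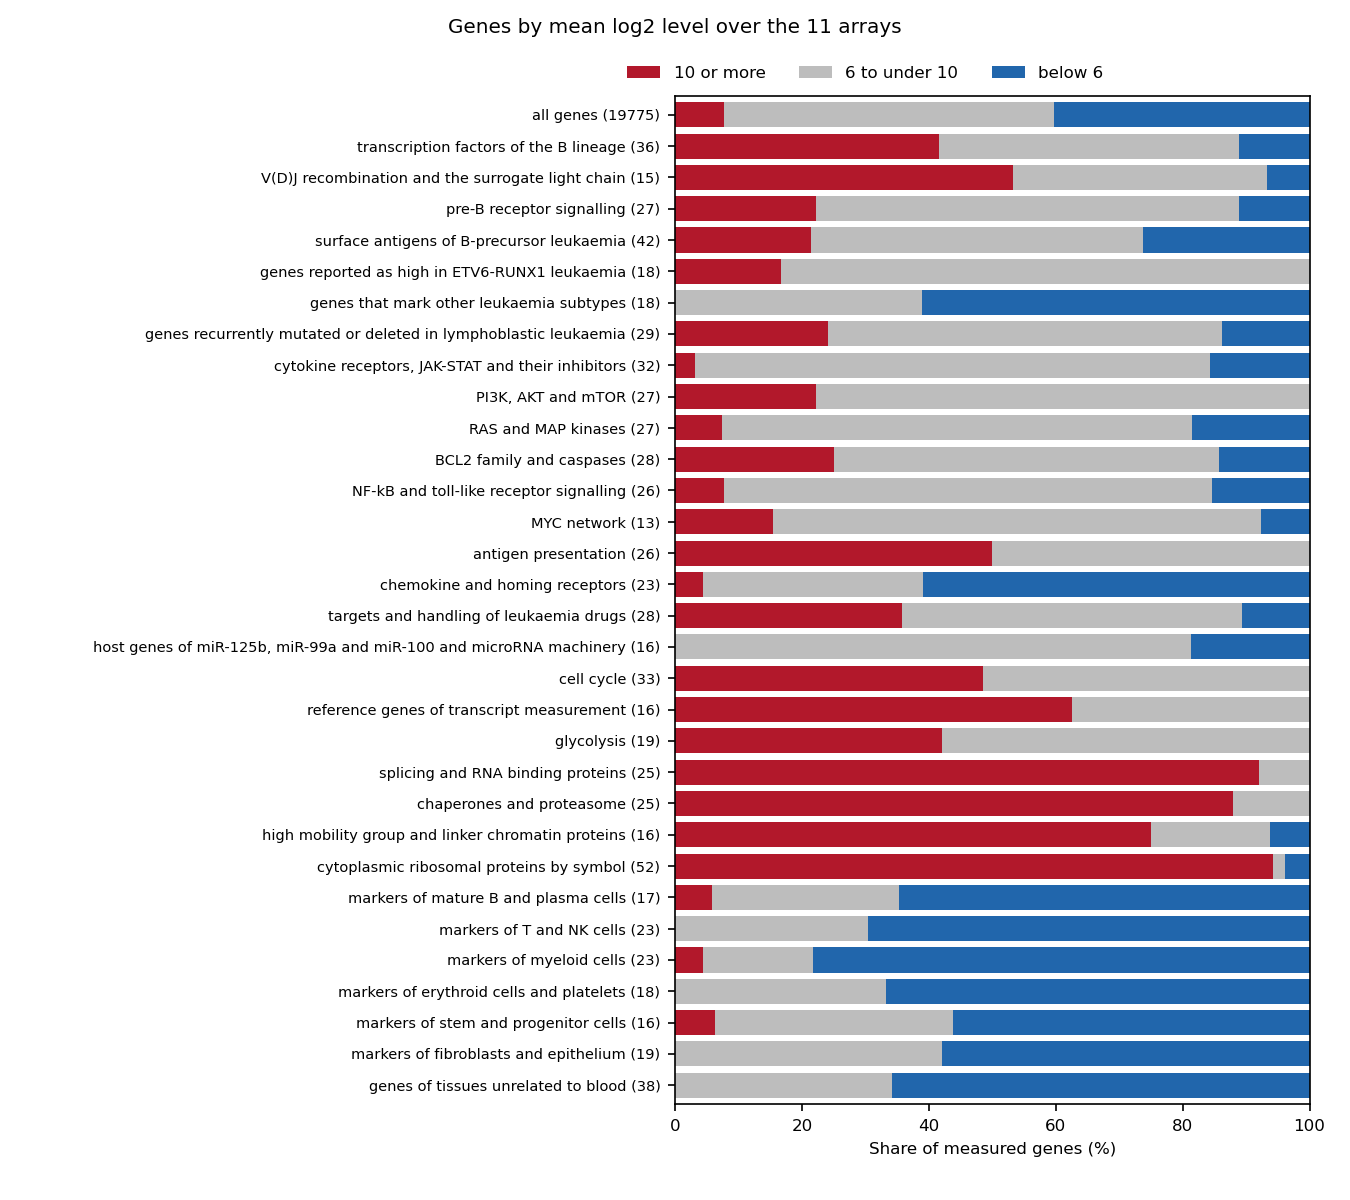
Share of the measured genes of each list (number in brackets) with a mean log2 level of 10 or more, from 6 to under 10, and below 6 over the 11 arrays. Among the B-precursor lists the share at 10 or more runs from 21.4% for surface antigens to 53.3% for V(D)J recombination and the surrogate light chain, beside 7.78% of all genes.

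The transcription factors of the B lineage held the most genes at high level of the 4 B-precursor lists, with 15 of 36 at 10 or more (41.7%, against 7.78% of all genes) and 4 below 6 (11.1%, against 40.2%). PAX5, which holds cells in the B lineage, had a level of 11.39 on its lowest array, 11.65 at the median and 11.82 on its highest. EBF1, which opens B-lineage genes together with TCF3, ran from 11.83 over 12.01 to 12.19. Both genes stayed above 11 on every array. TCF3 itself, the E protein E2A, averaged 11.05 ± 0.14 (SD, n = 11), and its relative TCF4 averaged 10.71 ± 0.11. LEF1, a factor of Wnt signalling that pro-B cells use for growth, averaged 12.22 ± 0.09. MYB, needed for the survival of early progenitors, averaged 12.20 ± 0.16. The co-activator POU2AF1 stood at 11.96 ± 0.21, SOX4 at 11.51 ± 0.27, ELF1 at 11.48 ± 0.15 and MEF2C at 11.47 ± 0.15. BCL11A, required for the earliest B cells, averaged 11.27 ± 0.11, and BCL6, which lets pre-B cells tolerate DNA breaks, averaged 11.09 ± 0.16. The remaining members at 10 or more were FLI1 (10.33 ± 0.13), IKZF1 (10.23 ± 0.15), which encodes IKAROS, and ERG (10.07 ± 0.16), 3 factors of haematopoietic development. ERG lay just inside the level and crossed it on some arrays, from 9.79 to 10.28. With the median over a gene's probe sets, EBF1, ELF1, MEF2C and BCL11A stayed at 10 or more. The other members fell below 10, to 6.65 for TCF3, 7.77 for LEF1, 8.57 for POU2AF1, 8.72 for PAX5 and 9.47 for MYB. Without probe sets marked as binding several transcripts TCF3 averaged 6.90 and ERG 6.75, and BCL11A and LEF1 had no probe set left.

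The 4 transcription factors below 6 were ID1, IKZF3, SPI1 and IRF8. ID1, an inhibitor of E proteins, averaged 5.57 ± 0.09. IKZF3, which encodes AIOLOS and acts from the pre-B stage onward, averaged 5.73 ± 0.08 and ran from 5.61 to 5.91. SPI1 (PU.1) averaged 5.89 ± 0.13 and IRF8 averaged 5.90 ± 0.07, and both are factors shared by myeloid and B cells. IRF4, which acts with IRF8 in light chain rearrangement, lay just above the level at 6.16 ± 0.09. PRDM1, the plasma cell factor, stood at 6.26 ± 0.06, and POU2F2 at 6.28 ± 0.10. These values lay within the span of the unrelated genes, as did ETV6 at 6.12 ± 0.06, described with the leukaemia genes below. Between the levels lay ETS1 (9.30 ± 0.15), FOXO1 (9.16 ± 0.13), which drives RAG expression, BACH2 (9.01 ± 0.17), ID3 (8.99 ± 0.15) and ID2 (8.87 ± 0.16). XBP1, the factor of the secretory response, averaged 9.94 ± 0.09, just below 10.

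**Figure D2:**
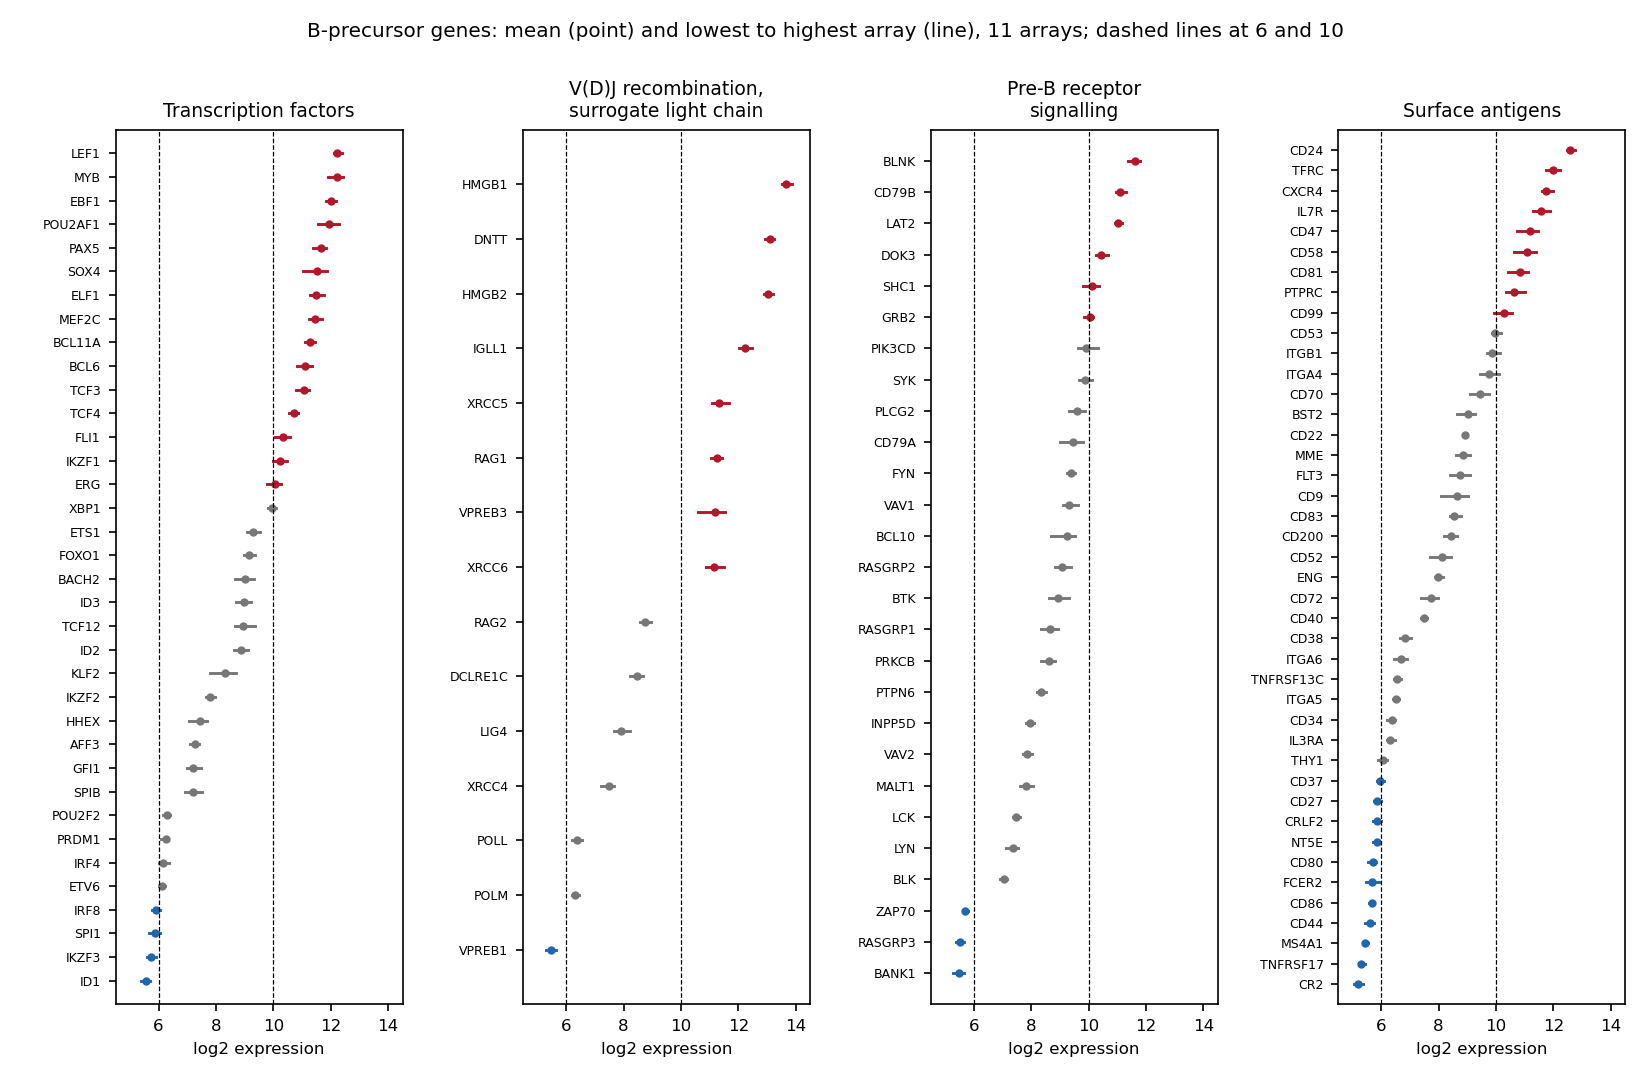
Mean log2 level of the genes on the 4 B-precursor lists with the lowest and highest of the 11 arrays, and dashed lines at 6 and 10. Of the 120 genes, 38 have a mean at or above 10 and 19 a mean below 6, and the median range over arrays is 0.40.

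The genes of V(D)J recombination and the surrogate light chain had the largest share at 10 or more among the B-precursor lists, 8 of 15 (53.3%, against 7.78% of all genes). VPREB1 alone was below 6 (6.67%, against 40.2%). DNTT, the template-independent polymerase, ran from 12.94 over a median of 13.11 to 13.23. RAG1, the catalytic subunit of the recombinase, ran from 11.06 over 11.26 to 11.42, while its other probe set averaged 5.34. Its partner RAG2 averaged 8.74 ± 0.12. HMGB1 (13.66 ± 0.10) and HMGB2 (13.05 ± 0.09) bend DNA at the recombination signals and are abundant in most dividing cells. Without probe sets marked as binding several transcripts HMGB2 averaged 5.60. The end-binding pair XRCC5 (Ku80, 11.32 ± 0.22) and XRCC6 (Ku70, 11.16 ± 0.21) also stood above 10. XRCC5 averaged 6.44 without probe sets marked as binding several transcripts, and the other probe set of XRCC6 averaged 5.98. The later joining factors lay between the levels: DCLRE1C (Artemis) averaged 8.45 ± 0.14, LIG4 7.90 ± 0.20 and XRCC4 7.48 ± 0.17. The polymerases POLL (6.37 ± 0.10) and POLM (6.31 ± 0.07) were close to 6, within the span of the unrelated genes.

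The surrogate light chain was split between its 2 proteins. IGLL1, the lambda-5 part, ran from 12.02 over a median of 12.27 to 12.48. VPREB1, the variable-like part, ran from 5.31 over 5.48 to 5.65. No array of VPREB1 reached 6, and its highest value lay below the median of the 38 unrelated genes. Each of these genes has 1 probe set, and no probe set listed with several genes names VPREB1, so neither value has a second measure on this array. The ribosomal protein genes RPL36A and RPLP2, which growing cells need, were also below 6 (at 5.26 and 5.84), so a low value of the available probe sets does not show that a transcript is absent. VPREB3, a B-lineage gene of related sequence that binds newly made heavy and light chains, ran from 10.59 over 11.30 to 11.54. Its 3 arrays of replicate 3 were low, with a mean of 10.80 against 11.34 on the other 8.

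The promoters of IGLL1, VPREB1 and VPREB3 are shown because they lie on one chromosome and the genes are on the same list. Of these 3 genes 2 stand above 11 and the third, VPREB1, below 6. Each window runs from 250 bases before the RefSeq start to 50 after it (GRCh38.p14), 5′ to 3′ on the strand of the gene. Capitals mark matches, on either strand, to the E-box CAGGTG bound by E proteins, the core CCCNNGGG of EBF sites, the octamer ATTTGCAT, the core TGTGGT of RUNX sites, the core CCGGAA of ETS sites and the TATA box TATAAA.
IGLL1, chr22:23580241-23580540 (minus strand): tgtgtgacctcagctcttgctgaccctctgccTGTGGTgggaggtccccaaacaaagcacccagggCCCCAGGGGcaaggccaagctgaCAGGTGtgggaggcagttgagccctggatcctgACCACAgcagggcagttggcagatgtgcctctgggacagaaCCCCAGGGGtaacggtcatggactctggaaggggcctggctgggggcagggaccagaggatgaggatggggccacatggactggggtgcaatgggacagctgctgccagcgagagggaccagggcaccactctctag
VPREB1, chr22:22244536-22244835 (plus strand): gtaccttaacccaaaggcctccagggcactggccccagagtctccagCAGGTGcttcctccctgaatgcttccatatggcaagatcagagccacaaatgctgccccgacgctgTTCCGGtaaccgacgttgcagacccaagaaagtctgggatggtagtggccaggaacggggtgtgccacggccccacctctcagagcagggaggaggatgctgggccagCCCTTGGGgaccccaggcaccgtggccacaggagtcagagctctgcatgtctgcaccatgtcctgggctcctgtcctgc
VPREB3, chr22:23754376-23754675 (minus strand): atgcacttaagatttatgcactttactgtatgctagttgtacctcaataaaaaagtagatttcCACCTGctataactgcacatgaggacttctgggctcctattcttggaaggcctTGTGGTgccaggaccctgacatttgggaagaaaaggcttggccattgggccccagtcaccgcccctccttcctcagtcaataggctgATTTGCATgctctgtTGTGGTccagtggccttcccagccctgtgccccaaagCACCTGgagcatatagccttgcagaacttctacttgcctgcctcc
The window of IGLL1 held 4 matches to the EBF core, which lie as overlapping pairs, shifted by 1 base, at 2 places, with 1 E-box and 2 RUNX cores. The window of VPREB1 held 1 EBF core, 1 E-box and 1 ETS core. The window of VPREB3 held 1 octamer, 2 E-boxes, of which 1 lies after the start, and 2 RUNX cores. No window held the TATA box. Over all 27305 RefSeq promoters of this length, 18.6% held an EBF core, 20.6% an E-box, 13.1% a RUNX core, 17.6% an ETS core, 12% a TATA box and 1.80% an octamer. The EBF core and the E-box were thus present in the promoter of IGLL1 and in that of VPREB1. Such matches describe these letters alone.

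Among the genes of pre-B receptor signalling, 6 of 27 stood at 10 or more (22.2%, against 7.78% of all genes) and 3 below 6 (11.1%, against 40.2%). The receptor's signalling chain CD79B averaged 11.09 ± 0.12 on its highest probe set. With the median over its probe sets it averaged 5.84, and without probe sets marked as binding several transcripts 5.73, both below 6. Its partner CD79A averaged 9.44 ± 0.29 and ran from 8.99 over 9.47 to 9.82, below 10 on all arrays. BLNK, the adaptor that links the kinase SYK to calcium signalling, had the highest level of the list at 11.62 ± 0.11. The adaptors LAT2 (11.04 ± 0.08), DOK3 (10.44 ± 0.12), SHC1 (10.11 ± 0.17) and GRB2 (10.04 ± 0.12) made up the rest of those above 10. The other probe sets of LAT2, DOK3 and SHC1 averaged 6.83, 6.66 and 5.98. Several kinases lay between the levels. SYK averaged 9.88 ± 0.14, BTK 8.93 ± 0.22, FYN 9.37 ± 0.09, LYN 7.37 ± 0.12 and BLK 7.06 ± 0.07. PIK3CD, the lymphocyte catalytic subunit of PI3-kinase, averaged 9.92 ± 0.20, just below 10. Below 6 were BANK1 (5.49 ± 0.12), an adaptor of mature B cells, RASGRP3 (5.51 ± 0.08), an activator of RAS, and ZAP70 (5.71 ± 0.04), the T-cell relative of SYK. The related activators RASGRP1 (8.65 ± 0.17) and RASGRP2 (9.07 ± 0.18) lay between the levels.

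Of 42 surface antigens, 9 stood at 10 or more (21.4%, against 7.78% of all genes) and 11 below 6 (26.2%, against 40.2%). CD24, a small adhesion protein of immature B cells, ran from 12.47 over a median of 12.53 to 12.76. TFRC, the transferrin receptor of dividing cells, averaged 11.99 ± 0.16. CXCR4, the receptor that keeps precursors in the marrow, averaged 11.75 ± 0.11, and IL7R, the receptor for the growth factor of B precursors, averaged 11.55 ± 0.20. The broadly expressed antigens CD47 (11.19 ± 0.25), CD58 (11.07 ± 0.29), CD81 (10.83 ± 0.24), PTPRC (10.62 ± 0.26), which encodes CD45, and CD99 (10.29 ± 0.20) were also above 10. On the median over probe sets TFRC averaged 6.15, CD47 7.28, PTPRC 9.00, CD99 9.35 and CXCR4 9.52. CD24, IL7R, CD58 and CD81 stayed at 10 or more. Without probe sets marked as binding several transcripts, however, CD58 averaged 6.92 and PTPRC 9.98, and CD24 and CD99 had no probe set left. CD53 averaged 9.98 ± 0.10 over all arrays and reached 10 when the arrays of replicate 3 were left out. Several antigens used in diagnosis lay between the levels. MME, the common ALL antigen CD10, averaged 8.83 ± 0.16, CD22 8.93 ± 0.05 and FLT3 8.74 ± 0.20. CD9 averaged 8.63 ± 0.40, with a mean of 8.14 on the arrays of replicate 3 and 8.81 on the rest. With the median over its probe sets it averaged 5.61.

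The 11 surface antigens below 6 were CR2 (5.20 ± 0.10), TNFRSF17 (5.31 ± 0.05), MS4A1 (5.44 ± 0.05), CD44 (5.60 ± 0.09), CD86 (5.67 ± 0.07), FCER2 (5.69 ± 0.12), CD80 (5.70 ± 0.10), NT5E (5.84 ± 0.07), CRLF2 (5.85 ± 0.08), CD27 (5.86 ± 0.08) and CD37 (5.95 ± 0.08). Most belong to later B cells. CR2 is the complement receptor of mature B cells, FCER2 the low-affinity IgE receptor, TNFRSF17 the receptor BCMA of plasma cells, CD27 a memory marker, and CD80 and CD86 are costimulators. MS4A1, which encodes CD20, ran from 5.39 over 5.42 to 5.53. CD44, a hyaluronan receptor of most leucocytes, has 13 probe sets on the array, and the highest of them ran from 5.42 over 5.63 to 5.73. CRLF2, the receptor subunit overexpressed in another leukaemia subtype, ran from 5.71 to 5.98. CD34, the progenitor antigen, averaged 6.36 ± 0.07 and CD38 averaged 6.83 ± 0.12, both within the span of the unrelated genes. In all, 13 B-precursor genes lay between 6 and 7, within the span of the unrelated genes.

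**Figure D3:**
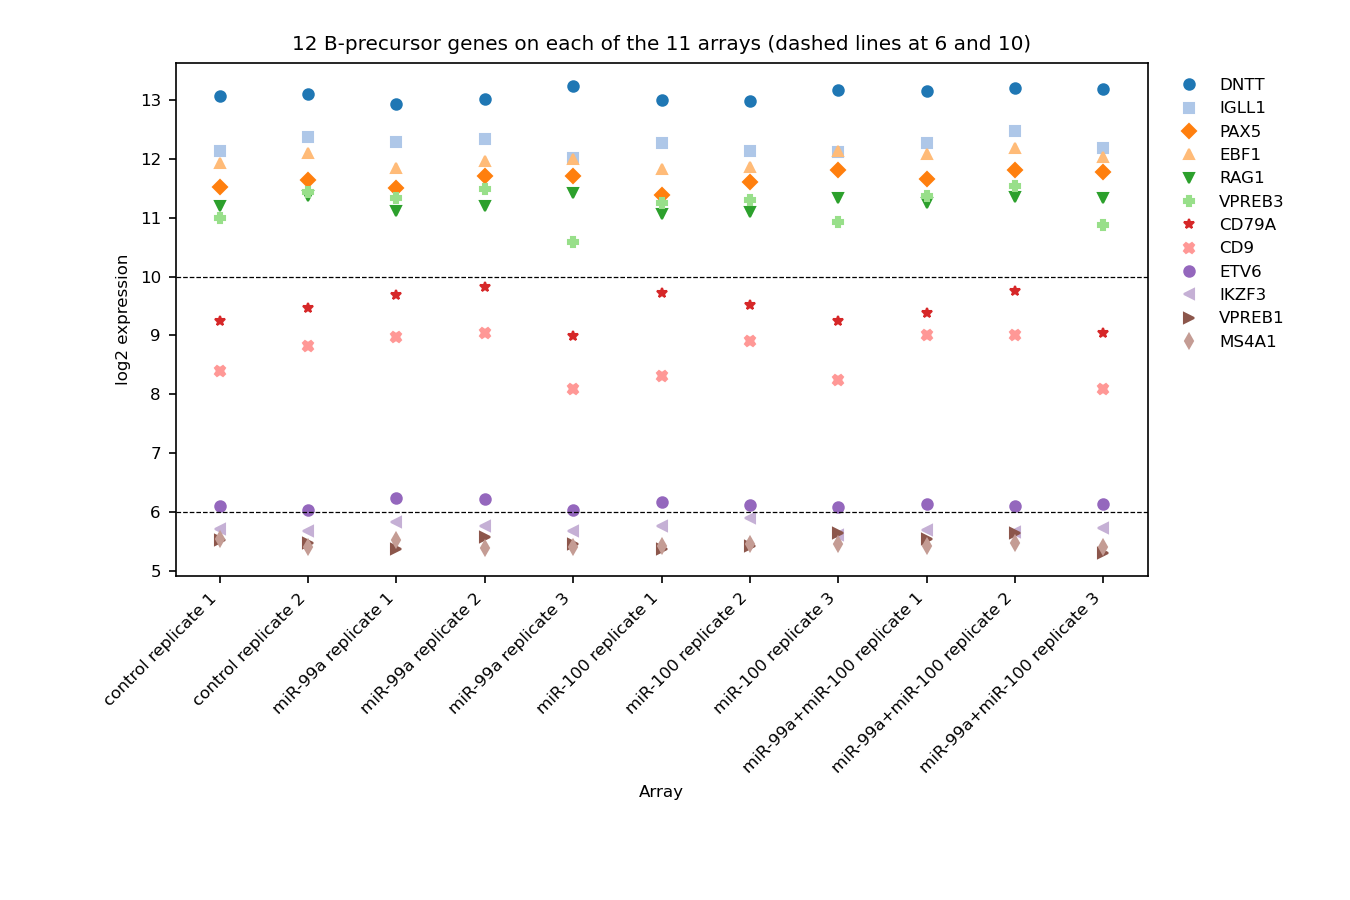
Log2 level of 12 B-precursor genes on each of the 11 arrays, with the arrays along the horizontal axis and dashed lines at 6 and 10. DNTT, IGLL1, PAX5, EBF1, RAG1 and VPREB3 lie above 10 on every array, CD79A and CD9 between the lines, ETV6 just above 6, and IKZF3, VPREB1 and MS4A1 below 6. VPREB3, CD79A and CD9 are low on the arrays of replicate 3.

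Genes reported in the field as high in ETV6-RUNX1 leukaemia spanned the scale, with 3 of 18 at 10 or more (16.7%, against 7.78% of all genes). None had a mean below 6 (against 40.2%). A further 5 lay below 7, within the span of the unrelated genes, where about 59.0% of all genes lay. PIK3C3, the class III lipid kinase of autophagy, averaged 10.39 ± 0.24, and PTPRK, a receptor phosphatase, averaged 10.18 ± 0.19. Their second probe sets averaged 8.28 and 6.92, and PTPRK reached 10 on 8 of the 11 arrays. PCLO, the presynaptic scaffold piccolo, averaged 13.32 ± 0.11. Its second probe set stood at 11.07 and its lowest at 5.69. CBFA2T3 (9.98 ± 0.14), a corepressor of the ETO family, and TNFRSF21 (9.94 ± 0.13) lay just below 10. TCFL5, CLIC5, IGF2BP1 and SOX11 averaged 9.35, 9.28, 8.48 and 8.26. The 5 below 7 were EPOR, the erythropoietin receptor (6.63 ± 0.03), ARHGEF4 (6.68 ± 0.13), NOVA1 (6.66 ± 0.07), DSC3 (6.58 ± 0.13) and ADGRG1 (6.04 ± 0.08). ADGRG1 lay below 6 on 3 arrays. ETV6, the repressor whose first part enters the fusion, averaged 6.12 ± 0.06 on the highest of its 5 probe sets and ran from 6.03 to 6.23. RUNX1 was represented by 13 probe sets, all listed with several genes, and so fell outside the rule for a gene's level. The highest of them averaged 10.18, named after its value was seen. The fusion transcript itself was not measured as such.

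Markers of other leukaemia subtypes were at the low end, with none of 18 at 10 or more and 11 below 6 (61.1%, against 40.2% of all genes). MEIS1, a partner of HOX proteins in KMT2A-rearranged leukaemia, averaged 5.20 ± 0.08. TLX1 (5.40 ± 0.13) and TLX3 (5.17 ± 0.07), homeobox genes activated in T-cell leukaemia, and CCND1 (5.71 ± 0.07), the cyclin of mantle cell lymphoma, were below 6. WT1, a zinc-finger factor often high in acute leukaemia, was an exception at 9.18 ± 0.15, and ran from 9.00 to 9.40. Its other probe set averaged 6.03. Among genes recurrently mutated or deleted in lymphoblastic leukaemia, 7 of 29 stood at 10 or more (24.1%, against 7.78% of all genes) and 4 below 6 (13.8%, against 40.2%). Those above were TBL1XR1 (11.48 ± 0.15), PTPN11 (11.02 ± 0.12), MSH6 (10.76 ± 0.18), RB1 (10.41 ± 0.10), EZH2 (10.37 ± 0.14), BTG1 (10.06 ± 0.28) and CREBBP (10.01 ± 0.14). CREBBP and BTG1 lay close to the level, and 6 of the list remained at 10 or more without replicate 3. The neighbouring genes CDKN2A (5.72 ± 0.10) and CDKN2B (5.62 ± 0.08), both brakes on the kinases CDK4 and CDK6, were below 6 on all arrays. NF1 (5.49 ± 0.09), a brake on RAS, and TOX (5.16 ± 0.12) were below 6 as well. NR3C1, the glucocorticoid receptor, averaged 9.44 ± 0.18.

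Of 153 signalling genes measured, 20 stood at 10 or more (13.1%, against 7.78% of all genes) and 19 below 6 (12.4%, against 40.2%), so that 114 lay between. In the list of cytokine receptors and JAK-STAT genes, the interferon-gamma receptor chain IFNGR1 alone reached 10, at 10.21 ± 0.13. That was 3.1% of the list, against 7.78% of all genes, and 5 of 32 (15.6%, against 40.2%) were below 6. JAK1 averaged 8.90 ± 0.19, STAT6 9.31 ± 0.12 and JAK2 6.48 ± 0.09. IL6R (5.45 ± 0.09), IL10RA (5.56 ± 0.05), IL2RA (5.57 ± 0.11), CSF2RA (5.68 ± 0.09) and STAT4 (5.71 ± 0.08) were the 5 below 6.

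None of the 27 genes of PI3K, AKT and mTOR lay below 6 (against 40.2% of all genes), and 6 stood at 10 or more (22.2%, against 7.78%). These genes had a median of 3 probe sets, and among all genes with 2 or 3 of them 30.0% lay below 6. RPS6, the ribosomal protein phosphorylated at the end of this pathway, averaged 13.97 ± 0.11, and RHEB, the GTPase that activates mTOR, averaged 11.72 ± 0.27. The cap-binding protein EIF4E averaged 10.19 ± 0.33 and its inhibitor EIF4EBP1 10.08 ± 0.34. The regulatory subunits PIK3R1 (10.11 ± 0.19) and PIK3R3 (10.08 ± 0.14) completed the 6. The kinase MTOR itself averaged 7.01 ± 0.17 and AKT1 7.57 ± 0.12. Of 27 RAS and MAP kinase genes, 2 stood at 10 or more (7.41%, against 7.78% of all genes) and 5 below 6 (18.5%, against 40.2%). DUSP6, a phosphatase of ERK, averaged 11.17 ± 0.06, and JUND, an AP-1 subunit, averaged 10.63 ± 0.46. JUND had the widest range of all list members, from 9.86 over 10.79 to 11.13, and its mean was 9.99 on the arrays of replicate 3 against 10.86 on the other 8. Below 6 were SPRED1 (4.98 ± 0.08), DUSP4 (5.56 ± 0.11), DUSP5 (5.69 ± 0.11), EGR1 (5.75 ± 0.06) and FOSB (5.79 ± 0.11), brakes or early targets of the pathway.

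On the list of the BCL2 family, caspases and other genes of cell death, 7 of 28 reached 10 (25%, against 7.78% of all genes). Of the same list 4 lay below 6 (14.3%, against 40.2%). The survival proteins BCL2 (10.65 ± 0.13) and MCL1 (10.75 ± 0.11) stood above 10, whereas BCL2A1 averaged 5.47 ± 0.17. The death effector PMAIP1 (NOXA) averaged 11.06 ± 0.30. Cytochrome c (CYCS) stood at 12.77 ± 0.31, CASP2 at 10.73 ± 0.11, BIRC5 (survivin) at 10.24 ± 0.13 and XIAP, an inhibitor of caspases, at 10.23 ± 0.20. BCL2L11, the BH3 protein BIM, averaged 8.94 ± 0.15, and FAS, a death receptor, averaged 6.24 ± 0.09. In NF-kB and toll-like receptor signalling, 2 of 26 genes reached 10 (7.69%, against 7.78% of all genes) and 4 lay below 6 (15.4%, against 40.2%). The brake TNFAIP3 (11.42 ± 0.13) and the kinase IRAK1 (11.16 ± 0.11) were the 2 at 10 or more, while LTB, a cytokine of lymphoid cells, averaged 9.997. The toll-like receptors TLR2, TLR4, TLR7 and TLR10 were the 4 below 6, at 5.97, 5.71, 5.73 and 5.79. MYC averaged 11.59 ± 0.11 and its partner MAX 10.61 ± 0.23, whereas MYCL averaged 5.78 ± 0.11 and MYCN 6.20 ± 0.11.

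Of 26 genes of antigen presentation, 13 stood at 10 or more (50%, against 7.78% of all genes) and none below 6 (against 40.2%). In the class I pathway, beta-2 microglobulin (B2M) averaged 13.73 ± 0.23, HLA-B 12.47 ± 0.11, HLA-C 12.46 ± 0.10, HLA-E 11.40 ± 0.14 and HLA-F 10.11 ± 0.07. The immunoproteasome subunits PSMB9 (10.45 ± 0.16) and PSMB8 (10.37 ± 0.14) also reached 10. In class II, HLA-DPA1 averaged 13.27 ± 0.09, HLA-DRA 12.92 ± 0.09, HLA-DRB1 11.80 ± 0.12, HLA-DPB1 11.71 ± 0.10, HLA-DMA 10.02 ± 0.15 and the invariant chain CD74 11.12 ± 0.19. CIITA, the master activator of class II, averaged 7.76 ± 0.17. HLA-DQA1 was the lowest of the list at 6.35 ± 0.11, beside 9.54 ± 0.14 for HLA-DQB1. Of the list of homing receptors, 14 of 23 lay below 6 (60.9%, against 40.2% of all genes). CXCR4, also a chemokine receptor but counted with the surface antigens, stood at 11.75. ICAM2 (10.91 ± 0.17), an adhesion ligand, was the one at 10 or more on the list of homing receptors (4.35%, against 7.78% of all genes). S1PR4, a sphingosine phosphate receptor, averaged 9.29 ± 0.34 and ran from 8.81 to 9.79. CCR7 (5.68 ± 0.06), CXCR5 (5.86 ± 0.10) and S1PR1 (4.91 ± 0.08), receptors that guide mature lymphocytes, were below 6.

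Of the targets and handling genes of leukaemia drugs, 10 of 28 stood at 10 or more (35.7%, against 7.78% of all genes) and 3 below 6 (10.7%, against 40.2%). Of the tubulins, which vincristine binds, TUBA1B averaged 13.73 ± 0.09, TUBB 12.10 ± 0.09 and TUBB4B 10.84 ± 0.08, while TUBB6 averaged 5.45 ± 0.11. Thymidylate synthase (TYMS) averaged 12.74 ± 0.08, the ribonucleotide reductase subunits RRM2 12.01 ± 0.13 and RRM1 11.03 ± 0.26, and the topoisomerases TOP2B 12.34 ± 0.14, TOP2A 10.88 ± 0.26 and TOP1 10.55 ± 0.09. DCK, which activates cytarabine, averaged 11.33 ± 0.26. Of the drug exporters, ABCC1 averaged 8.59 ± 0.13, ABCB1 (P-glycoprotein) 6.64 ± 0.11, ABCG2 5.82 ± 0.09 and ABCC2 5.56 ± 0.13, so that ABCB1, ABCG2 and ABCC2 lay within the span of the unrelated genes. Asparagine synthetase (ASNS) averaged 9.85 ± 0.16.

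The host transcript of miR-100 and one copy of miR-125b, MIR100HG, was among the lowest genes at 4.87 ± 0.10. The host transcript of miR-99a and the other copy, MIR99AHG, averaged 6.12 ± 0.13. The first lay below 6 on all arrays, and both fell within the span of the unrelated genes. LIN28A (4.84 ± 0.08) and LIN28B (5.11 ± 0.07), which block the maturation of let-7 microRNAs, were below 6. The 12 other measured genes of that list, which make or use microRNAs, lay between the levels, among them DROSHA at 8.81 ± 0.19, DICER1 at 9.31 ± 0.15 and AGO2 at 8.71 ± 0.15.

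Of 33 cell cycle genes, 16 stood at 10 or more (48.5%, against 7.78% of all genes) and none below 6 (against 40.2%). The replication clamp PCNA averaged 12.54 ± 0.11, the mitotic kinase CDK1 11.92 ± 0.29, CDK6 11.65 ± 0.10 and the factor E2F1 11.56 ± 0.14. The checkpoint protein MAD2L1 averaged 11.51 ± 0.30 and the helicase subunit MCM6 11.30 ± 0.22. CCND3, the D cyclin of lymphoid cells, averaged 11.17 ± 0.19, while CCND2 on another list averaged 6.33 ± 0.09.

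Housekeeping genes were mostly high, with 73 of 99 at 10 or more (73.7%, against 7.78% of all genes) and 1 below 6 (against 40.2%). That one was HMGA2, a fetal chromatin protein, at 5.55 ± 0.09. Of the reference genes, TPT1 averaged 14.19 ± 0.20, EEF1A1 14.11 ± 0.14, PPIA 13.90 ± 0.16, GAPDH 13.81 ± 0.12 and ACTB 13.30 ± 0.18, whereas TBP averaged 8.50 ± 0.10 and POLR2A 7.98 ± 0.10. Splicing and RNA binding proteins reached 10 in 23 of 25 cases, led by NPM1 (13.29 ± 0.11), and chaperones and the proteasome in 22 of 25, led by HSP90AA1 (13.03 ± 0.15). Of 19 glycolysis genes 8 reached 10, among them LDHB (13.48 ± 0.10) and LDHA (12.95 ± 0.07). Chromatin proteins were high in 12 of 16 cases, with PTMA at 13.68 ± 0.15 and the histone H2AZ1 at 13.58 ± 0.20. Cytoplasmic ribosomal proteins were high too, and 49 of 52 stood at 10 or more, with a median of 13.80. RPL41 (14.47 ± 0.20), RPS23 (14.36 ± 0.20) and RPL37A (14.32 ± 0.21) had the highest means of all genes. RPL36A (5.26 ± 0.06) and RPLP2 (5.84 ± 0.16) were below 6 and RPL27A averaged 7.02 ± 0.22, each as measured by the probe sets that name it alone.

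**Figure D4:**
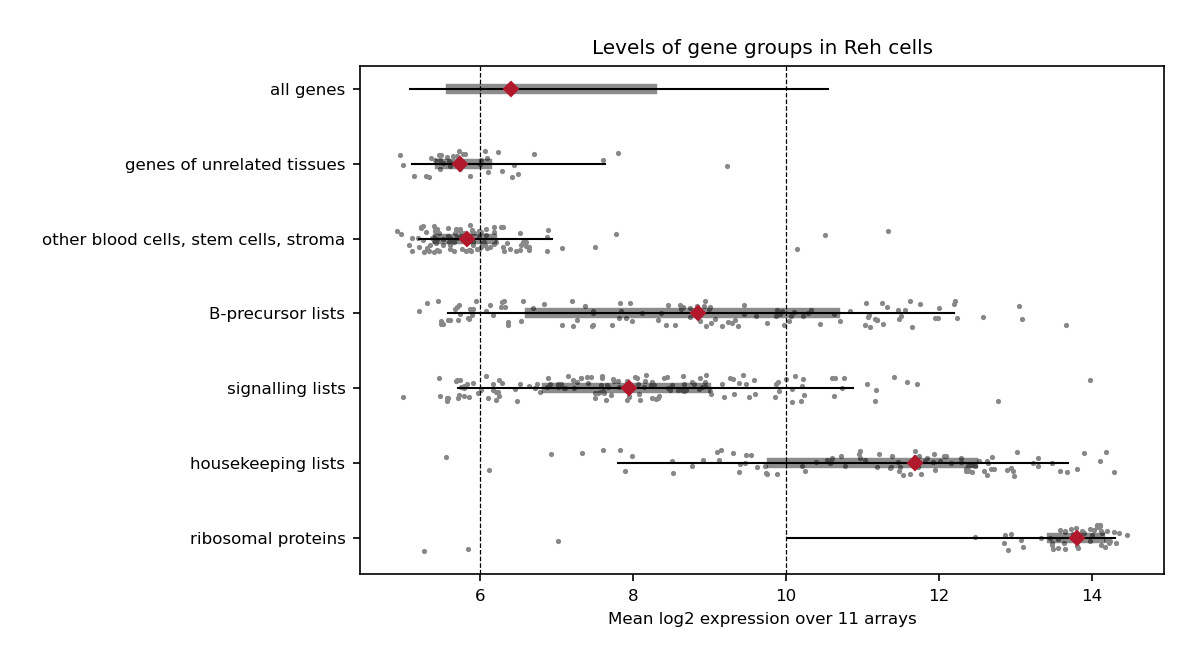
Mean log2 level of the genes of each group (grey points), with the median (diamond), the quartiles (thick bar) and the 5th to 95th percentile (thin line), and dashed lines at 6 and 10. The groups of unrelated tissues and of other blood cells, stem cells and stroma centre below 6, the B-precursor lists at 8.85, the signalling lists at 7.95 and the ribosomal proteins at 13.80.

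Most markers of other cell types were low. Of 115 genes of other blood cells, stem cells and stroma, which leave out the 38 unrelated genes, 77 lay below 6 (67.0%, against 40.2% of all genes). Below 7 lay 109 (against about 59.0% of all genes), and 3 stood at 10 or more (against 7.78%). Their median was 5.82. The T-cell receptor chains CD3D (5.85), CD3E (5.69) and CD3G (5.58), the killer cell genes NKG7 (5.97) and GNLY (5.65), and the monocyte genes CD14 (5.43), LYZ (5.41) and S100A8 (5.33) were below 6. The same held for the platelet genes PF4 (5.96) and PPBP (4.95), the erythroid gene ALAS2 (5.91), the immunoglobulin J chain JCHAIN (4.90) and the epithelial gene EPCAM (5.07). The 3 at 10 or more were MSI2 (11.34 ± 0.17), an RNA-binding protein of progenitors, CEBPB (10.51 ± 0.32), a factor of myeloid cells, and MZB1 (10.14 ± 0.16), a chaperone of immunoglobulin in B and plasma cells. CEBPB had a mean of 10.11 on the arrays of replicate 3 and 10.66 on the rest. Beyond these, MBP averaged 9.22 ± 0.12, SERPINA1 7.80 ± 0.29, BCL11B 7.77 ± 0.09, SYT1 7.60 ± 0.15, MPO 7.50 ± 0.11 and COL1A1 7.07 ± 0.04, which were the other genes of these lists and of the unrelated genes at 7 or more.

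The range over arrays was wider for genes at higher level. It is not compared with the distance between the classes, which the levels of 6 and 10 set. The median range over the 11 arrays was 0.28 for genes below 6, 0.38 for those between the levels and 0.53 for those at 10 or more. Among the B-precursor genes the range was 0.11 at the narrowest and 0.95 at the widest, with a median of 0.40. Each array singly gave 35 to 43 B-precursor genes at 10 or more and 17 to 20 below 6, and each of the 4 groups gave 38 or 39 and 19. Part of the spread at high level went with replicate 3, and how large a part was not computed. The mean of these 3 arrays differed by more than 0.5 from that of the 6 other treated arrays for 371 of the 1538 genes at 10 or more (24.1%). It held for 4.48% of all genes between the levels and for 0% of those below 6. Among the 38 B-precursor genes at 10 or more this held for 5 (13.2%), and over all 120 for 9 (7.5%), with differences from -0.73 for CD9 to 0.56 for PTPRC. Without replicate 3, 39 B-precursor genes stood at 10 or more and 19 below 6. The origin of this difference was not tested. For 34 of the 38 B-precursor genes at 10 or more there were several probe sets. A second probe set at 10 or more was found for 16 of them (47.1%, against 31.0% of all such genes), and one below 6 for 15 (44.1%, against 34.6%). PAX5 was among the latter, with its other probe set at 5.78. A high level therefore says that one probe set of the gene is bright.

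Promoter composition differed between high and low genes. The ratio of observed to expected CpG in the 300-base windows, which is high in CpG islands, had a median of 0.768 over 15384 measured genes with a RefSeq promoter. It was 0.884 for genes at 10 or more and 0.476 for genes below 6. The 31 B-precursor genes at 10 or more with a promoter had a median of 0.751, and 58.1% of them exceeded 0.6, against 90.8% of all genes at 10 or more. The 13 below 6 had a median of 0.324. CpG-poor and CpG-rich starts both occurred among the high genes: the ratio was 0.0535 for VPREB3, 0.0678 for IGLL1 and 0.164 for DNTT, but 0.817 for RAG1. VPREB1, at 0.278, was CpG-poor too. An EBF core was found in 13 of the 31 promoters (41.9%), in 2 of the 13 (15.4%), and in 21.7% of all measured genes. An E-box was found in 8 of the 31 (25.8%), in 4 of the 13 (30.8%) and in 19.6% of all. These shares are descriptions of few promoters, and no test was made of them.

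**Figure D5:**
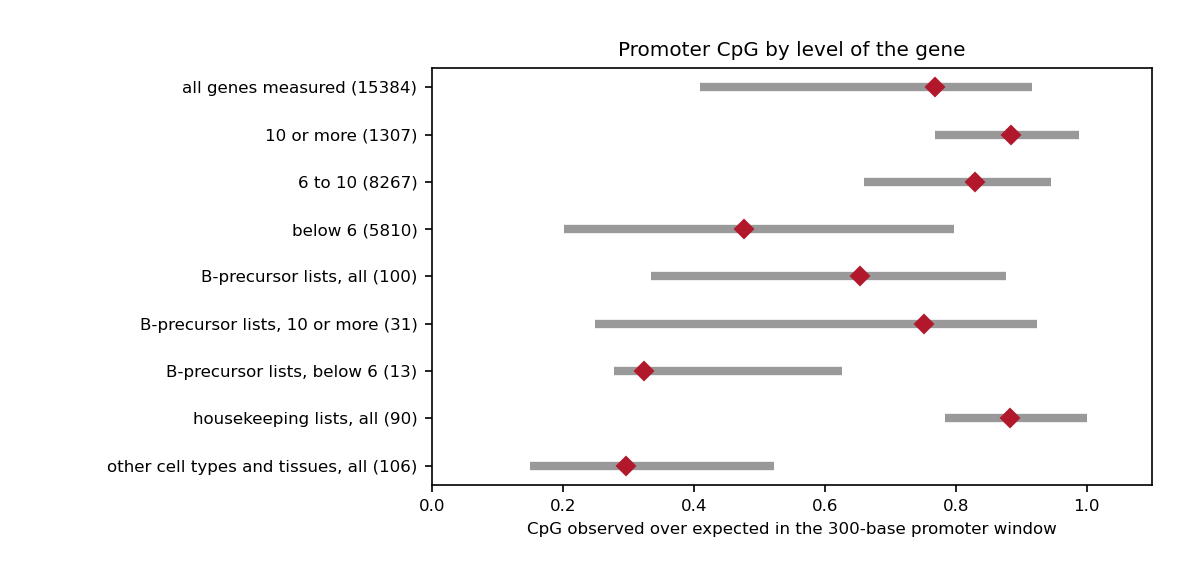
Ratio of observed to expected CpG in the promoter window (250 bases before to 50 after the RefSeq start) for genes by level class. The median is 0.884 for all genes at 10 or more and 0.476 for those below 6, and 0.751 and 0.324 for the B-precursor genes in the same classes.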

How the data were processed

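Total RNA of 11 samples was measured on human Affymetrix arrays, with complementary RNA made by the manufacturer's one-cycle kits, per the labels' protocols. The deposited values were taken as log2 expression because of their range, and were used as the authors gave them. For the background step, summarisation and normalization the method is not given in the sources used here, so a level holds for this table alone. Of 54675 probe sets, 42898 were listed with a gene. The 1801 listed with several genes were left out, and symbols were updated through gene identifiers to the RefSeq table (GRCh38.p14), which matched 41037 of the 41091 probe sets kept. A gene was given the probe set with the highest mean over the arrays, and its mean, SD and range were computed with no test and no contrast (Python 3.11.15, pandas 2.3.3). The counting of levels was tested on simulated data. In these the highest probe set held the true level by design, so the choice of probe set was not tested. All arrays were weighted equally, whatever their group.

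The members and the 30 gene lists, written from general knowledge, were chosen with earlier results of these data known. Genes were named by a rule: DNTT, IGLL1 and PAX5, up to 8 members at 10 or more of each list, each B-precursor gene below 6, the 20 highest genes, the 3 B-precursor genes nearest each level on each side, the 10 list members with the widest range and any marker of another cell type at 10 or more. Other members are given to describe their list. Alternatives were the median over probe sets, no cross-binding probe sets, quantile normalization, levels moved by 0.5, single arrays or groups left out, and genes with 1 probe set.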

Additional observations from a re-analysis of the deposited data

How the results depend on the processing

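Of the values recomputed for the 4 main counts, 74 stayed within 1.5 times the count reported and 10 did not. These 10 came from the choice of probe set, from the place of the low level, and from counting fewer genes. With the median over a gene's probe sets in place of the highest, 739 genes and 14 B-precursor genes stood at 10 or more, PAX5 averaged 8.72 and DNTT 12.45. Without probe sets marked as binding several transcripts, which left 17098 genes, 810 genes and 23 B-precursor genes did so. Among the 9252 genes with 1 probe set alone, an alternative added after the data were seen, 446 genes stood at 10 or more and 5187 below 6, with 4 and 7 B-precursor genes. With the low level set 0.5 lower, 3968 genes and 5 B-precursor genes lay below it. Leaving out each array in turn gave 1521 to 1553 genes at 10 or more, 7926 to 7967 below 6, with 38 B-precursor genes at 10 or more and 19 below 6 each time. Quantile normalization gave 1534 and 7945 genes, with 38 and 19 B-precursor genes. No paired analysis was possible because the result comes from no test. The number of arrays limits the precision, and probe sets near background give no order of genes.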

Other observations

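Beyond the lists, the genes with the highest means included several that any growing cell expresses and a few of blood cells. They are named as the highest outside the lists, or were chosen after their values were seen. The mitochondrial genes COX1 and COX2, subunits of cytochrome oxidase, averaged 14.29 ± 0.15 and 14.19 ± 0.16 (SD, n = 11). The actin-binding thymosins TMSB4X and TMSB10 averaged 13.95 ± 0.24 and 13.18 ± 0.13, the long noncoding RNA MALAT1 13.41 ± 0.14 and the chromatin protein UHRF1, which maintains DNA methylation, 13.16 ± 0.11. LAPTM5, a lysosomal protein of blood cells, averaged 13.11 ± 0.11, with its second probe set at 11.53.

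ANPEP, the peptidase CD13 that marks myeloid cells and is found on some B-precursor leukaemias, averaged 11.62 ± 0.37 and was chosen after its values were seen. It ran from 11.05 over a median of 11.53 to 12.21 and stood above 10 on all 11 arrays. Its other 2 probe sets averaged 5.43 and 5.33, so the level rests on a single probe set. On the list of myeloid markers, 18 of 23 genes lay below 6 (78.3%, against 40.2% of all genes), with CEBPB (10.51) and MPO (7.50) above 7.

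Some of the highest levels rest on one probe set in the same way. HUWE1, a ubiquitin ligase, averaged 14.08 ± 0.16 on a probe set of the kind that can bind related transcripts, while its second probe set averaged 9.55 and its lowest 5.82. PABPC1, the poly(A)-binding protein, averaged 13.81 ± 0.09, with its other probe set at 5.58. MBP, which encodes myelin basic protein and is known to give shorter transcripts in blood cells, averaged 9.22 ± 0.12 on the highest of its 9 probe sets.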
